A study of Mus musculus with 13 samples.

Results

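The 8 genes described here are encoded by the mitochondrial genome of the mouse. They comprise the 6 mRNAs for subunits of respiratory complexes III, IV and V and the 2 ribosomal RNAs of the mitochondrial ribosome. They were chosen by what they encode and not by a measured value: mt-Co1, mt-Co2 and mt-Co3 (complex IV), mt-Atp6 and mt-Atp8 (complex V), mt-Cytb (complex III), mt-Rnr1 and mt-Rnr2. They make up 8 of the 54232 genes in the count table and 8 of its 37 mitochondrially encoded genes, and all 8 passed the filter on low counts.

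Mitochondrial DNA is transcribed from both strands into long precursors, which are cut mostly at the interspersed tRNAs into mRNAs and rRNAs. Cytochrome b is the part of complex III where ubiquinol is oxidised, complex IV passes electrons from cytochrome c on to oxygen, and complex V uses the resulting proton gradient to make ATP. Each of these complexes also needs subunits encoded in the nucleus and made in the cytosol. Mitochondria of oocytes are the source of those of the embryo, and transcription in the nucleus is silent while a fully grown oocyte matures into an egg.

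The study sequenced RNA of 13 oocyte pools, with 25 cells in each, at 2 stages and in 2 genotypes. Germinal vesicle (GV) oocytes are fully grown oocytes whose nucleus is intact, and they were handled in M2 medium with 0.2 mM of the phosphodiesterase inhibitor IBMX, which keeps meiosis arrested. Metaphase II (MII) eggs had matured in the animal and were taken 12 to 14 h after the hCG injection that triggers ovulation. The study asked what is lost without Sirena1, an abundant long noncoding RNA (lncRNA) of oocytes, and its title names mitochondrial distribution.

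The groups were GV WT (n = 3), GV Null (n = 3), MII WT (n = 3) and MII Null (n = 4). The Null females were homozygous for a deletion of the Sirena1 promoter made with Cas9 in C57Bl/6 zygotes, and their line had been bred for generations with C57BL/6NCrl mice before homozygotes were produced. Strain is given as C57BL6/J for every sample, while the protocol names superovulated C57Bl6/J or C57BL/6NCrl females without saying which gave which pool. As the protocol reads, superovulation applies to all groups, though an hCG time is given only for the MII groups. A difference in substrain and the deletion cannot be told apart by the labels. No age is given, and nothing says that pools of a group came from separate females, so p-values measure only the spread between these pools, which may be technical.

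Total counts per library ran from 30867614 to 41285507. Sirena1, listed under C86187, stood at 2912 to 3092 CPM (read counts scaled to library size) in GV WT, 23.3 to 26.4 CPM in GV Null, 4271 to 4693 CPM in MII WT and 35.9 to 45.0 CPM in MII Null, so every library matched its genotype label. The 11 oocyte markers summed to 11150 to 14950 CPM and 5 blood and macrophage markers to 1.37 to 11.3 CPM per library. Cumulus and granulosa cells surround the oocyte in the follicle, and their markers differed among the GV Null pools: 16 of them, left after removing 4 that were at 5 CPM or more in every group, summed to 16.2, 491 and 151 CPM in GV Null replicates 1, 2 and 3, to 13.0 to 40.1 CPM in GV WT, and to 5.18 to 18.2 CPM in the 7 MII libraries. MII Null replicate 4 stood apart, at 25.7 on the leading principal component against 65.8 to 81.4 for the other 6 MII libraries and -108 to -64.4 for the GV libraries.

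The 8 genes lie on the mitochondrial chromosome (MT, GRCm38.p6, RefSeq coordinates). mt-Rnr1 (ENSMUSG00000064337) spans 70 to 1024, and mt-Rnr2 (ENSMUSG00000064339) spans 1094 to 2675. The complex IV genes are mt-Co1 (ENSMUSG00000064351) from 5328 to 6872, mt-Co2 (ENSMUSG00000064354) from 7013 to 7696, and mt-Co3 (ENSMUSG00000064358) from 8607 to 9390. The complex V genes are mt-Atp8 (ENSMUSG00000064356) from 7766 to 7969 and mt-Atp6 (ENSMUSG00000064357) from 7927 to 8607, while mt-Cytb (ENSMUSG00000064370) lies from 14145 to 15288. mt-Atp8 and mt-Atp6 overlap by 43 nt, and mt-Atp6 and mt-Co3 by 1 nt. How the counting assigned reads in an overlap is not given in the sources used here, so the split between mt-Atp8 and mt-Atp6 is uncertain.

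Copies of mitochondrial DNA lie in the nuclear genome, and the counts of some candidate copies kept a nearly fixed ratio to those of members; no sequences were compared here. Gm10925, a 681 nt pseudogene on chromosome 1 (24613971 to 24614651) that RefSeq lists with mt-Atp6 as a synonym, had 1.17 to 1.24 times the count of mt-Atp6 in each of the 13 libraries. Gm28661 had 1.02 to 1.06 times the count of mt-Co2, Gm28437 had 1.02 to 1.03 times that of mt-Co3, and Gm29216 had 0.314 to 0.365 times that of mt-Co1. These last 3 pairings rest on the count ratios alone and were chosen after the values were seen. Whether a read that matches several places was counted for each, 1 or neither is not given in the sources used here, so absolute levels of these members are uncertain. Their changes were close to those of the candidate copies: from GV to MII in WT, the log2 fold change was 1.82 for mt-Atp6 and 1.85 for Gm10925, and 0.67 for mt-Co3 and 0.68 for Gm28437. This closeness follows from the nearly fixed ratios and is no separate check on the changes. Gm20594, a nuclear gene on chromosome 6 (79818031 to 79818364) that RefSeq lists with Mtrnr2l as a synonym, had at most 0.000963 times the count of mt-Rnr2. Of 8 tested candidate copies, 8 were higher in MII than in GV at an adjusted p under 0.05 (edgeR) in WT and 7 in Null. All 8 had a log2 fold change above 0 in both genotypes. Of all genes tested, 19.9% passed as higher in WT and 22.1% in Null. Where a copy keeps a nearly fixed ratio to a mitochondrial gene, its call repeats that of the gene and adds no further gene that rose.

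Complex IV is represented by 3 mRNAs. mt-Co1 encodes the subunit that holds the site where oxygen is reduced. Its level, in CPM scaled by trimmed mean of M values (TMM), was 1510, 1547 and 1796 in GV WT replicates 1 to 3 and 1945, 2654 and 2193 in GV Null. In eggs it was 3581, 3996 and 3968 in MII WT and 4309, 3791, 5247 and 5685 in MII Null. Every MII library lay above every GV library, and the genotypes overlapped in eggs but not in GV oocytes.

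mt-Co2 encodes the subunit that takes up electrons from cytochrome c. It stood at 167, 159 and 224 CPM in GV WT and at 234, 271 and 285 CPM in GV Null. Levels in eggs were 371, 436 and 448 CPM in MII WT and 699, 435, 538 and 658 CPM in MII Null. MII Null replicate 2 fell among the MII WT libraries, and the other 3 lay above them.

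mt-Co3 encodes the third core subunit, which carries no redox centre. It had 90.1, 82.8 and 112 CPM in GV WT and 128, 155 and 156 CPM in GV Null. It had 126, 163 and 166 CPM in MII WT and 250, 172, 240 and 288 CPM in MII Null. For mt-Co3 alone among the 8 genes, the Null libraries lay above the WT libraries at both stages, and the MII WT and GV Null ranges overlapped. Of all genes tested, 6.83% were higher in Null without overlap in GV oocytes and 2.94% in eggs.

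Of the complex V mRNAs, mt-Atp6 encodes the subunit that forms the proton path beside the rotating ring. mt-Atp6 was at 185, 156 and 209 CPM in GV WT and at 231, 314 and 306 CPM in GV Null. It was at 513, 679 and 748 CPM in MII WT and at 1056, 640, 826 and 906 CPM in MII Null. Its Null libraries lay above WT in GV oocytes, and MII Null replicate 2 lay within the MII WT range.

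mt-Atp8, a short gene for a small membrane subunit, was the lowest of the 8 in total counts, with 702 to 7911 reads per library. It had 24.4, 17.6 and 32.1 CPM in GV WT and 27.9, 31.3 and 32.1 CPM in GV Null. Levels of 83.9, 90.7 and 108 CPM in MII WT stood beside 207, 104, 104 and 129 CPM in MII Null. MII Null replicate 1 was the highest, and the genotypes overlapped at both stages.

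mt-Cytb, for cytochrome b, is the only mitochondrially encoded subunit of complex III. It was at 591, 521 and 642 CPM in GV WT and at 630, 888 and 832 CPM in GV Null. It was at 1430, 1912 and 1874 CPM in MII WT and at 2192, 1588, 2005 and 2075 CPM in MII Null. The stages were apart in both genotypes, and the genotypes overlapped at both stages.

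The rRNAs are the RNA core of the small (mt-Rnr1) and large (mt-Rnr2) mitochondrial ribosome subunits. mt-Rnr1 was at 5335, 4762 and 6432 CPM in GV WT, 6006, 9034 and 7671 CPM in GV Null, 9248, 11620 and 11340 CPM in MII WT, and 16220, 9579, 12960 and 13730 CPM in MII Null. mt-Rnr2 was at 15130, 14790 and 18310 CPM in GV WT, 14960, 23820 and 21400 CPM in GV Null, 24200, 25230 and 26100 CPM in MII WT, and 31750, 22560, 30310 and 29940 CPM in MII Null. For mt-Rnr2, MII Null replicate 2 lay below GV Null replicate 2, the only overlap between stages within a genotype among the 8 genes.

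**Figure D1:**
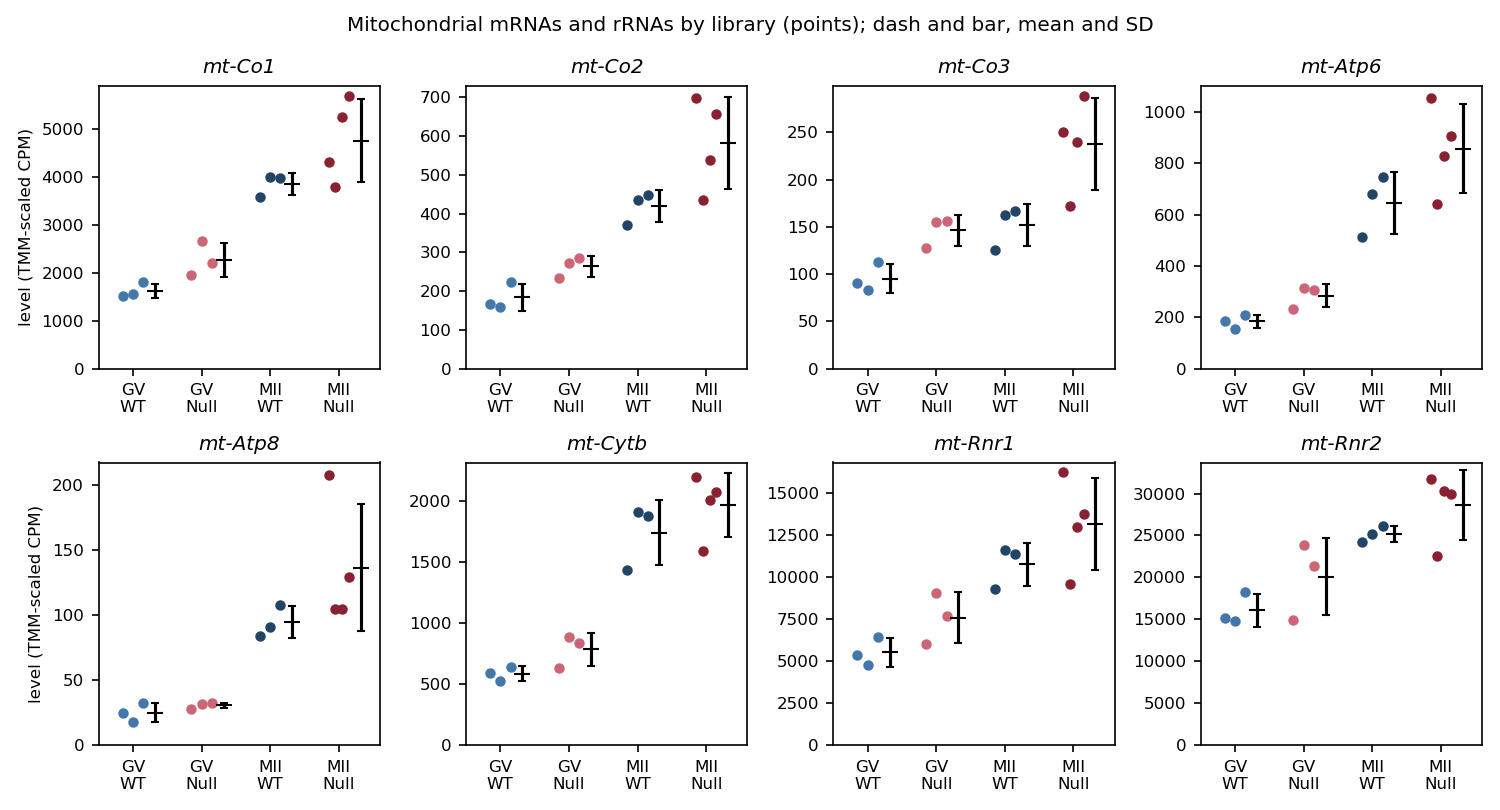
TMM-scaled CPM (y axis, linear, each from 0) of the 8 RNAs in each of the 13 libraries (points) by group (x axis), with the mean and SD. MII libraries lie above GV libraries of the same genotype, except for mt-Rnr2, where MII Null replicate 2 (22560 CPM) lies below GV Null replicate 2 (23820 CPM).

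Levels of different genes were compared per length of gene (CPM per kb). mt-Rnr2 was the highest, at 10160 ± 1230 CPM per kb in GV WT and 15920 ± 603 CPM per kb in MII WT (SD, n = 3 each). mt-Rnr1 followed at 5769 ± 889 and 11240 ± 1360, then mt-Co1 at 1047 ± 101 and 2491 ± 150, and mt-Cytb at 511 ± 52.9 and 1520 ± 234 CPM per kb. mt-Rnr2, mt-Rnr1, mt-Co1, mt-Cytb and mt-Atp6 kept this order in 13 of 13 libraries. The order leaves out reads counted for the candidate nuclear copies. Gm10925 had 1.17 to 1.24 times the count of mt-Atp6, and mt-Cytb was 1.24 to 1.99 times mt-Atp6 per length. The place of mt-Atp6 below mt-Cytb is therefore uncertain, as are the levels of other members with such copies. mt-Atp6 and mt-Co2 did not differ beyond their spread in GV WT, at 270 ± 39.2 and 268 ± 51.7 CPM per kb, whereas mt-Atp6 was 1.39 to 1.68 times mt-Co2 in the MII WT libraries.

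The lowest positions per length belonged to mt-Atp8 and mt-Co3, and they differed in order between stages. In GV WT the levels were 121 ± 35.6 CPM per kb for mt-Atp8 and 121 ± 19.7 CPM per kb for mt-Co3. mt-Co3 was above mt-Atp8 in 1 of 3 GV WT libraries and in 3 of 3 GV Null libraries. In eggs mt-Atp8 was above mt-Co3 in 3 of 3 WT and 4 of 4 Null libraries, by 2.14 to 2.56 and 1.67 to 3.19 times. The candidate copy Gm28437 had 1.02 to 1.03 times the count of mt-Co3, so the order of mt-Co3 and mt-Atp8 is uncertain as well. mt-Co3, though it shares complex IV with mt-Co1, stood well below it in counts: mt-Co1 held 60.2 ± 1.83% and mt-Co3 3.52 ± 0.197% of the counts of the 6 mRNAs in GV WT.

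**Figure D2:**
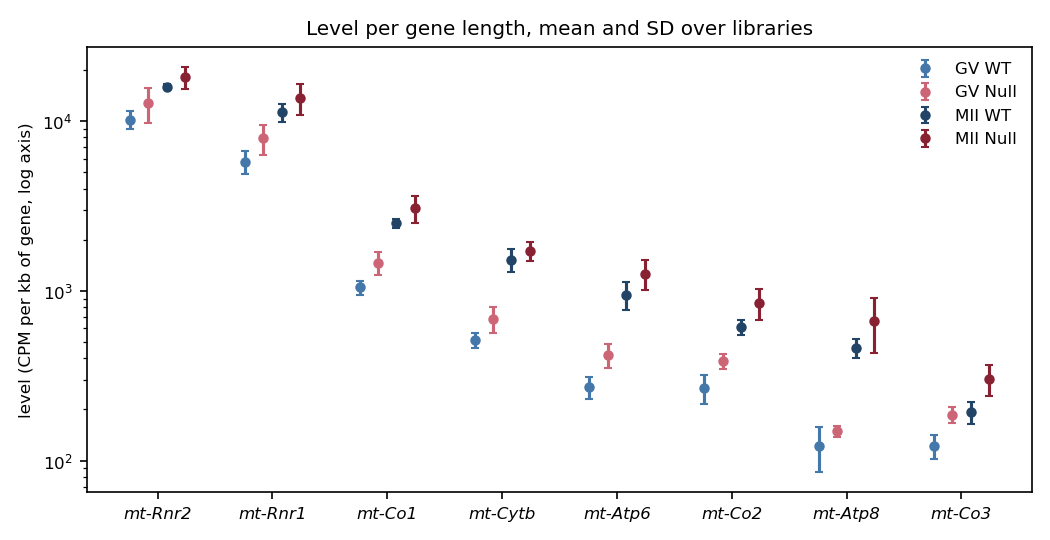
Mean and SD over libraries of CPM per kb of gene (y axis, log scale) for the 8 RNAs (x axis) in the 4 groups. The rRNAs and mt-Co1 lead, and mt-Atp8 and mt-Co3, level in GV WT at 121 CPM per kb, part in eggs.

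From GV to MII in WT, all 8 RNAs rose relative to the rest of the library. The rise was largest for the complex V mRNAs mt-Atp8 (3.81-fold) and mt-Atp6 (3.52-fold), followed by mt-Cytb (2.97-fold). The complex IV mRNAs mt-Co1 and mt-Co2 rose 2.38-fold and 2.28-fold, and mt-Co3 rose 1.59-fold. The rRNAs rose 1.95-fold (mt-Rnr1) and 1.57-fold (mt-Rnr2). All levels are relative to library size, because no count of the added Renilla luciferase RNA was used here. A gain of mitochondrial RNA and a loss of other RNA therefore cannot be told apart, nor can fewer cells and less RNA per cell.

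In the edgeR quasi-likelihood fit with Benjamini-Hochberg adjustment over 20143 genes, 8 of 8 passed at an adjusted p under 0.05, all higher. Of all genes tested, 42.7% passed and 19.9% were higher. The median log2 fold change was 1.22 for the 8 genes and 0.0053 for all genes. mt-Cytb had the smallest adjusted p (log2 1.57, SE 0.151, adjusted p = 1.12e-06) and mt-Co3 the largest (log2 0.67, SE 0.177, adjusted p = 0.0082). For mt-Atp8 the log2 fold change was 1.93 (SE 0.287, adjusted p = 0.000295) and for mt-Rnr2 0.65 (SE 0.155, adjusted p = 0.00363). No member had overlapping WT libraries between the stages, and 28.2% of all genes were likewise higher without overlap.

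The scaling of the libraries bore on the members with the smallest rises. With total counts and no scaling factors the median of all genes shifted to -0.195, and the share of called genes that were higher was 23.7% against 46.6% with TMM. Under that scaling mt-Co3 (log2 0.47, adjusted p = 0.0687) and mt-Rnr2 (log2 0.45, adjusted p = 0.0645) no longer passed, while the other 6 did.

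In Null oocytes the same 8 RNAs rose from GV to MII. The folds were 4.49 for mt-Atp8, 3.02 for mt-Atp6, 2.51 for mt-Cytb, 2.21 for mt-Co2, 2.10 for mt-Co1, 1.63 for mt-Co3, 1.73 for mt-Rnr1 and 1.43 for mt-Rnr2. All 8 passed (edgeR, adjusted p from 3.17e-06 for mt-Cytb to 0.00921 for mt-Rnr2), where 22.1% of all genes passed as higher and 49% in all. The median was 1.11, against -0.0495 for all genes. GV and MII libraries did not overlap for 7 of the 8, as for 21.2% of all genes that were higher. mt-Rnr2 lost its call with total counts (log2 0.28, adjusted p = 0.187) and with a filter of 5 CPM in 3 libraries (log2 0.38, adjusted p = 0.0503). Without scaling factors the median of all genes was -0.276, and 21.4% of called genes were higher against 45.2%. All 8 passed without MII Null replicate 4 (log2 0.47 to 2.17) and with GV Null replicate 1 as the lone GV Null library (log2 0.90 to 2.29), a fit that assumes that the lone library varies like the other groups.

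**Figure D3:**
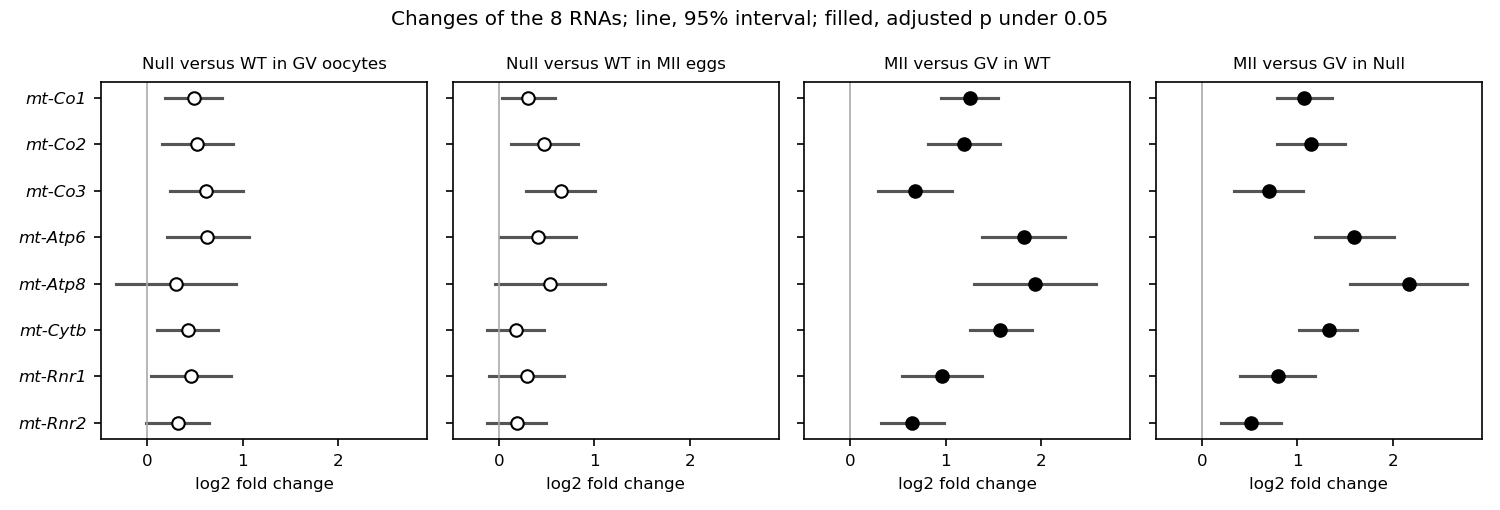
Log2 fold change (x axis) of each of the 8 RNAs (rows) in 4 comparisons, with the 95% interval of the edgeR fit. Filled points passed at an adjusted p under 0.05: all 8 in each maturation comparison, with folds of 1.43 to 4.49, and none in either genotype comparison.

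The nuclear-encoded partners of these proteins moved the other way at maturation. Of the nuclear mRNAs for complex III subunits, 0 rose and 8 fell among 9 tested in WT, for complex IV 0 rose and 9 fell among 11, and for complex V 0 rose and 17 fell among 18. In Null the numbers that fell were 8, 9 and 18. In these and the later counts of genes per list, rose and fell mean a pass at an adjusted p under 0.05. Cox8a of complex IV lay above 0 without passing (log2 0.48 in WT and 0.44 in Null). Of all genes tested, 22.8% passed as lower in WT and 26.9% in Null. Cox4i1, the largest nuclear-encoded complex IV subunit, fell from 59.7 ± 5.29 to 3.2 ± 0.425 CPM in WT (edgeR, log2 -4.22, adjusted p = 4.79e-12). Uqcrh, a complex III subunit, fell from 38.4 ± 1.62 to 3.46 ± 0.643 CPM (log2 -3.48, SE 0.207). Atp5a1, the alpha subunit of ATP synthase, went from 231 ± 6.09 to 105 ± 8.27 CPM (log2 -1.13, SE 0.0707, edgeR adjusted p = 8.69e-10). The median log2 fold changes of the nuclear lists were -2.01, -1.93 and -2.50 in WT, where the 8 members had 1.22.

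**Figure D4:**
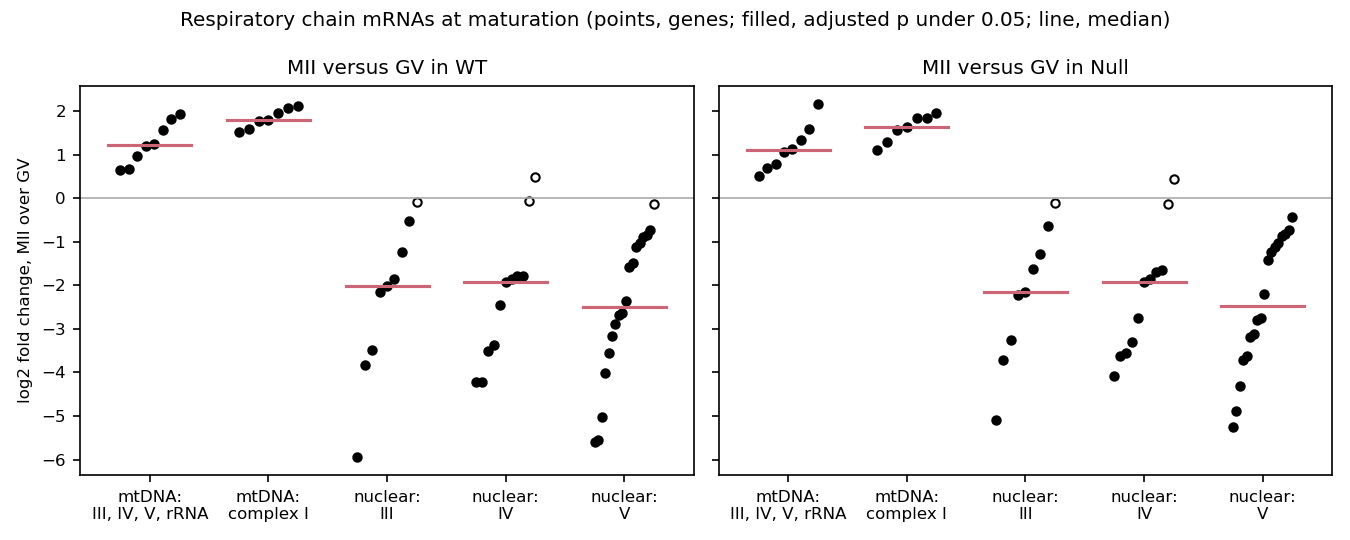
Log2 fold change from GV to MII (y axis) of each gene (points) in lists of respiratory chain genes by genome and complex (x axis), in WT and in Null. Lines are medians and filled points passed at an adjusted p under 0.05; the mitochondrially encoded genes lie above 0 and the nuclear lists have medians of -2.01, -1.93 and -2.50 in WT.

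Factors that make and handle the mitochondrial RNAs did not share 1 direction. The counts below stand beside shares over all genes tested. In WT 19.9% of all genes rose and 22.8% fell, and in Null 22.1% rose and 26.9% fell. In the list for mitochondrial transcription, 1 rose and 2 fell among 9 tested in WT: Tfam, which binds and packages mitochondrial DNA, fell from 21.8 ± 0.871 to 13.0 ± 1.73 CPM, Polrmt, the mitochondrial RNA polymerase, fell from 17.0 ± 2.20 to 10.3 ± 2.45 CPM, and the initiation factor gene Tfb2m rose from 26.6 ± 1.62 to 35.6 ± 2.06 CPM (edgeR, adjusted p = 0.000628, 0.00137 and 0.00169). For RNA processing and stability 6 rose and 2 fell among 19. Those that fell were Lrpprc, which stabilises mitochondrial mRNAs, from 81.5 ± 1.84 to 46.4 ± 1.72 CPM, and Fastkd5, which acts in processing of mitochondrial precursors, from 13.2 ± 1.96 to 6.88 ± 0.908 CPM. For rRNA modification and assembly of the mitochondrial ribosome 1 rose (Gtpbp10, 1.49-fold) and 7 fell among 14, and for complex IV assembly 2 rose and 11 fell among 18. Of 8 tested assembly factors of complexes III and V, 0 rose and 4 fell. In Null, 4 rose and 3 fell in the transcription list, 6 and 3 in processing, 1 and 7 in rRNA modification, 1 and 12 in complex IV assembly, and 0 and 4 in assembly of complexes III and V.

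The other mitochondrially encoded RNAs rose with the 8 members, where 19.9% of all genes tested passed as higher in WT and 22.1% in Null. The 7 complex I mRNAs all passed as higher in WT, with a median of 1.79, and of 16 tested mitochondrial tRNAs 15 passed as higher, with a median of 2.37; in Null 7 and 13 passed. The ratio of the summed counts of the 6 member mRNAs to those of the complex I mRNAs was 2.51 ± 0.0389 in GV WT and 1.87 ± 0.0872 in MII WT, and 2.54 ± 0.141 and 2.00 ± 0.104 in Null (n = 3, 3, 3 and 4). The libraries of the stages did not overlap in either genotype. Each p was the smallest its design allows, 0.1 in WT and 0.0571 in Null (exact permutation test, two-sided, as for all shares and ratios here). Among the 20 such tests, the smallest Benjamini-Hochberg value was 0.167, so none passed.

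As a share of all counts, the 6 mRNAs held 0.289 ± 0.0273% in GV WT, 0.412 ± 0.0737% in GV Null, 0.646 ± 0.0622% in MII WT and 0.796 ± 0.128% in MII Null. The 2 rRNAs held 2.32 ± 0.270%, 3.02 ± 0.750%, 3.36 ± 0.191% and 3.89 ± 0.658%. The ratio of the mRNA shares of MII and GV, taken between geometric means as for all such ratios here, was 1.93 in Null and 2.23 in WT, and whether these differ was not tested. For the rRNAs the ratios were 1.30 and 1.45, and the Null libraries overlapped between the stages (exact permutation p = 0.229) while the WT libraries did not (exact permutation p = 0.1).

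The ratio of rRNA to mRNA counts was lower in eggs than in GV oocytes. It was 7.97, 7.87 and 8.20 in the GV WT libraries and 5.48, 5.07 and 5.12 in the MII WT libraries (0.651 times, exact permutation p = 0.1). In Null it was 6.56, 7.62 and 7.64 in GV and 5.51, 4.78, 4.83 and 4.48 in MII (0.673 times, exact permutation p = 0.0571). Stages did not overlap in either genotype. The balance of the rRNAs differed too: mt-Rnr2 had 2.93 ± 0.153 times the counts of mt-Rnr1 in GV WT, 2.64 ± 0.149 in GV Null, 2.36 ± 0.229 in MII WT and 2.21 ± 0.185 in MII Null. These ratios do not depend on how libraries were scaled.

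**Figure D5:**
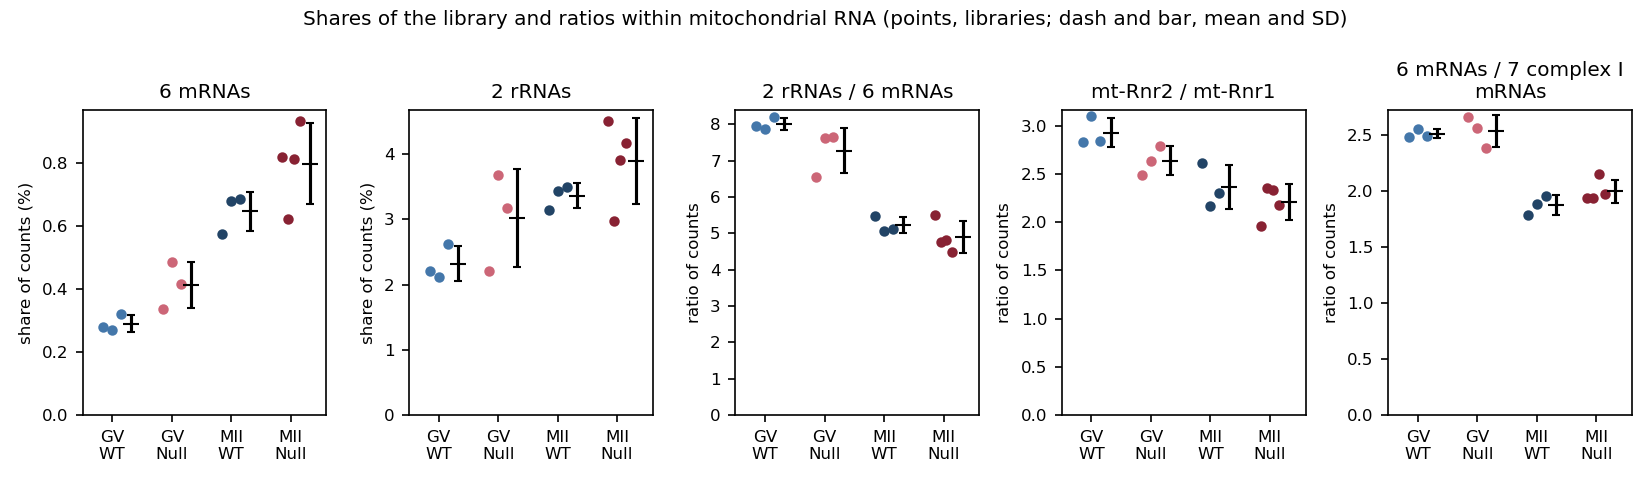
Share of all counts (%, y axis) held by the 6 mRNAs and the 2 rRNAs, and 3 ratios of counts (y axis), per library (points) by group (x axis), with the mean and SD. Mean shares are higher and mean ratios lower in MII than in GV of the same genotype; the rRNA to mRNA ratio is 7.87 to 8.20 in GV WT and 5.07 to 5.48 in MII WT.

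Within the 6 mRNAs the composition differed between stages. mt-Atp6 made up 6.81 ± 0.486% of their counts in GV WT and 9.32 ± 0.910% in MII WT, mt-Cytb 21.8 ± 1.08% and 25.1 ± 1.5%, and mt-Atp8 0.907 ± 0.182% and 1.36 ± 0.114%. mt-Co1 made up 60.2 ± 1.83% and 55.9 ± 2.36%, and mt-Co3 3.52 ± 0.197% and 2.19 ± 0.112%. The mt-Co3 percentage was 3.59 to 4.10% in GV Null and 2.55 to 2.96% in MII Null. In eggs this lay above the MII WT range of 2.06 to 2.27%, whereas the GV ranges (3.34 to 3.73% in WT) overlapped.

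The comparison of Null with WT in GV oocytes asks whether the members depend on Sirena1 before maturation. All 8 had a mean above WT, from a log2 fold change of 0.30 for mt-Atp8 to 0.63 for mt-Atp6, and none passed the test. Intervals were wide: the 95% interval ran from 1.14 to 1.72-fold for mt-Co1, 1.11 to 1.86 for mt-Co2, 1.18 to 2.00 for mt-Co3, 1.15 to 2.08 for mt-Atp6, 1.08 to 1.67 for mt-Cytb, 1.03 to 1.84 for mt-Rnr1, 0.992 to 1.57 for mt-Rnr2 and 0.796 to 1.90 for mt-Atp8.

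With edgeR 0 of 8 passed (adjusted p 0.605 to 0.896), where 0.0546% of all genes passed. Of the 8, 6 had an unadjusted p under 0.05, beside 1342 of all 20143 genes tested. DESeq2 gave 0 of 8 (smallest adjusted p 0.0822, mt-Co3). The 8 positive signs stand beside 53.7% of all genes with a log2 fold change above 0, and their median of 0.47 beside 0.0177. Null libraries lay above WT libraries without overlap for mt-Co1, mt-Co2, mt-Co3 and mt-Atp6, beside the 6.83% of all genes given above. The call depended on the filter: with every gene that had a count kept, 7 of 8 passed, all but mt-Atp8, with log2 fold changes of 0.30 to 0.61 and 644 genes called in place of 11. The fold changes hardly moved, with log2 0.469 for mt-Co1 against 0.485 with the filter. The SE shrank, to 0.088 from 0.139 for mt-Co1 and to 0.103 from 0.283 for mt-Atp8. The added calls thus came with smaller SEs and not with larger changes.

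The GV Null libraries differed in the level of cumulus and granulosa markers as well as in that of the members. The full list of 20 summed to 291, 806 and 436 CPM in replicates 1, 2 and 3 and to 275 to 301 CPM in GV WT. Hsd3b1, a steroid enzyme of follicle cells, ran from 2.80 to 258 CPM over the GV Null libraries and from 2.27 to 15 CPM over GV WT; of the 20, Tnfaip6 was at 0 in all 3 GV WT libraries and none was at 0 in all 3 GV Null libraries. The member mRNA share was 0.337, 0.484 and 0.415% in GV Null replicates 1, 2 and 3, and the rRNA share 2.21, 3.69 and 3.17%. These sums had the order of the markers, whereas mt-Co2, mt-Co3 and mt-Atp8 were highest in replicate 3. Among the GV WT libraries, replicate 3 had the lowest level of the 16 markers (13 CPM) and the highest mRNA share (0.320%). GV Null replicate 1, whose 16 markers lay within the GV WT range, was at 1.17 times the geometric mean of the GV WT shares for the mRNAs and at 0.957 times for the rRNAs. As the lone Null library it gave log2 fold changes of 0.42 for mt-Co3, 0.35 for mt-Co2, 0.33 for mt-Atp6, 0.26 for mt-Co1, 0.17 for mt-Atp8, 0.12 for mt-Rnr1, 0.11 for mt-Cytb and -0.11 for mt-Rnr2, each with adjusted p = 1. The median was 0.22, and mt-Rnr2 turned direction. Without GV Null replicate 2 alone it was 0.34, and without replicate 1 it was 0.59 (smallest adjusted p 0.0781).

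In MII eggs all 8 members again had means above WT, and none passed. mt-Co3 was the most different, with a log2 fold change of 0.65 (SE 0.167, edgeR adjusted p = 0.49) and a mean of 237 ± 48.7 CPM in Null (n = 4) against 152 ± 22.3 CPM in WT (n = 3). mt-Atp8 had 0.54 (SE 0.259), mt-Co2 0.48 (SE 0.161), mt-Atp6 0.41 (SE 0.183), mt-Co1 0.31 (SE 0.131), mt-Rnr1 0.29 (SE 0.180), mt-Rnr2 0.19 (SE 0.145) and mt-Cytb 0.18 (SE 0.138).

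With edgeR 0 of 8 passed (adjusted p 0.49 to 0.898), beside 0.0546% of all genes. Of the 8, 4 had an unadjusted p under 0.05 (mt-Co1, mt-Co2, mt-Co3 and mt-Atp6), beside 1280 of all 20143 genes tested. The signs stand beside 53.2% of all genes above 0. Null libraries lay above WT without overlap for mt-Co3 only, beside 2.94% of all genes. mt-Co3 passed with DESeq2 (log2 0.67, adjusted p = 0.0114), which called 38 genes in all. It also passed in edgeR without MII Null replicate 2 (log2 0.79, adjusted p = 0.0375). With no filter on low counts 6 of 8 passed, all but mt-Cytb and mt-Rnr2, but 290 genes were then called in place of 11. The SE of mt-Co3 was then 0.0896 against 0.167 with the filter, at a log2 fold change of 0.656 against 0.648. Without MII Null replicate 4 the log2 fold changes were 0.17 to 0.58 (smallest adjusted p 0.449). The SD was larger in MII Null than in MII WT for every member but mt-Cytb, and replicate 2 was the lowest of the 4 for mt-Co1, mt-Co2, mt-Co3, mt-Atp6, mt-Cytb and both rRNAs.

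The 20 cumulus and granulosa markers summed to 347 to 359 CPM in MII WT and 363 to 379 CPM in MII Null, above the 275 to 301 CPM of GV WT. Serpine2 made up most of this, with means of 241 CPM in MII WT and 251 CPM in MII Null against 169 CPM in GV WT. In MII WT 6 were at 0 in every library, among them the granulosa markers Foxl2, Amh and Inha, and 2 were at 0 in every MII Null library. Of the 16 left after removing the markers present in all groups, MII Null replicate 4 had 18.2 CPM and the other 3 MII Null libraries had 5.18 to 6.54 CPM, against 6.76 to 8.03 CPM in MII WT.

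The genotype effect on the members was not found to differ between the stages. In a direct test of the difference 0 of 8 passed with edgeR or DESeq2 (adjusted p = 0.999 for each in edgeR), and 0.00496% of all genes passed. Of the 8, 0 had an unadjusted p under 0.05 in edgeR, beside 681 of all 20143 genes tested. Differences in log2 fold change (MII minus GV) ran from -0.25 (SE 0.202) for mt-Cytb to 0.24 (SE 0.382) for mt-Atp8. The interval for mt-Cytb ran from -0.68 to 0.19 and that for mt-Co3 from -0.50 to 0.55, so differences within these intervals could not be resolved.

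The other lists were compared between the genotypes in the same fit. The nuclear complex III, IV and V lists had medians of 0.175, 0.0994 and 0.179 in GV oocytes and 0.292, 0.177 and 0.126 in eggs, with smallest adjusted p of 0.784, 0.805, 0.726, 0.833, 0.817 and 0.727 in that order. Cox7c, a small complex IV subunit, had a log2 fold change of 0.11 in GV oocytes and 0.77 (SE 0.372, edgeR adjusted p = 0.817) in eggs. Atp5b, the beta subunit of ATP synthase, stood at 402 CPM in GV WT and 400 CPM in GV Null. The transcription, processing and rRNA lists had medians of -0.0345 to 0.0527 over both stages. Of the 7 complex I mRNAs, 6 were above 0 in GV oocytes, as the members were, and 5 in eggs, with medians of 0.452 and 0.216. mt-Nd1 had the highest values, 0.64 (SE 0.183, edgeR adjusted p = 0.619) in GV oocytes and 0.50 (SE 0.172, adjusted p = 0.692) in eggs. The only one to pass was mt-Nd3, which fell in Null in GV oocytes (edgeR, log2 -1.21, adjusted p = 0.000735) and in eggs (log2 -1.06, adjusted p = 0.000722). Gm28438, a candidate copy with 0.998 to 1.23 times the count of mt-Nd3, fell as well. Its log2 fold change was -1.01 in GV (edgeR adjusted p = 0.00263) and -0.815 in MII (adjusted p = 0.0086). How reads were divided between them is not given, and substrain and the deletion cannot be told apart. mt-Tr, a tRNA, fell in eggs (log2 -3.71, adjusted p = 0.0137). The ratio of the 6 member mRNAs to the 7 complex I mRNAs was 2.54 against 2.51 in GV oocytes (exact permutation p = 0.9). With every gene weighted alike, by mean log2 counts in place of summed counts, the ratio in GV Null was 1.21 times that in GV WT. In MII Null it was 1.34 times that in MII WT. The exact permutation p-values, not adjusted, were 0.1 and 0.0571, each the smallest its design allows. This weighting counts mt-Nd3, which fell in Null, as much as more abundant complex I mRNAs such as mt-Nd5. The ratio without mt-Nd3 was not computed, so no general shift against complex I mRNAs can be read from it.

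Within groups the 8 members varied together. Over the 13 libraries, the deviations of log2 CPM from the group means had Pearson correlations of 0.164 (mt-Co1 and mt-Atp8) to 0.959 (mt-Atp6 and mt-Cytb), with a median of 0.821 over the 28 pairs. Pairs of a member and a complex I mRNA ran from -0.0649 (mt-Atp8 and mt-Nd6) to 0.978 (mt-Cytb and mt-Nd4), so high correlations were not particular to the 8. The points share libraries, scaling and, for the overlapping genes, reads, so all these correlations are descriptions. mt-Atp8 stood out in MII Null replicate 1, with 2.38% of the counts of the 6 mRNAs against 1.17 to 1.55% in the other MII Null libraries.

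Genes outside the mitochondrial genome with the pattern most like the mean of the 6 mRNAs were ranked by the Pearson correlation of log2 CPM over the 13 libraries, among 10283 genes of at least 5 CPM, leaving out names that are only clone numbers. They were Mospd1 (r = 0.984), Hprt (r = 0.973), Adam12, Cenpn, Dph6, Lztfl1, Bbs9 and Rgs17, the last with r = 0.959. Mospd1 had means of 165, 196, 271 and 310 CPM in GV WT, GV Null, MII WT and MII Null, and Hprt 32.2, 36.2, 46.7 and 51.4 CPM. By deviations from the group means the highest were Aldh1l1 (r = 0.914), Pramef20 (r = 0.903), Isoc1, Gstm5, Ubb, Zfp937, Acsf2 and Cth (r = 0.855). The lists shared no gene, and the correlations are descriptions that rest on shared libraries and stage.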

How the data were processed

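Raw read counts per gene, with no normalization by the authors, were deposited in 1 table for Ensembl release 93 and GRCm38.p6, as its title states. Per the labels, total RNA of 25 oocytes was extracted with 0.2 pg of added Renilla luciferase mRNA, amplified with the Ovation RNA-Seq V2 system, labelled as polyA RNA, and read as 65 bp single ends. STAR 2.5.3a and bedtools 2.26.0 are named in the submitters' processing notes. Which tool counted reads, with which strand setting and which use of reads with several matches, is not stated there. Of its lines 0 were other than genes, and no spike-in scale was used. Symbols were found for 54079 of 54232 gene IDs, and 14637 genes had no count.

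Counts of 13 libraries in 4 groups were fitted in 1 model with edgeR 4.0.16 in R 4.3.3 (TMM factors, filterByExpr by group, robust glmQLFit, glmQLFTest, two-sided). This left 20143 genes and 5 comparisons, each with Benjamini-Hochberg adjustment over all genes tested, a threshold of 0.05 and no minimum fold. The scripts were tested on simulated counts. DESeq2 1.42.0 was an alternative. Levels are TMM-scaled CPM with SD over libraries, and per kb for comparisons between genes. A count of 3 was the detection floor, and every member lay above it in every library; counts without molecular identifiers cover counting error only. Shares and ratios of counts were compared with exact permutation tests over libraries (scipy 1.17.1), whose smallest p is 0.1 for 3 against 3 and 0.0571 for 3 against 4. RefSeq coordinates of GRCm38.p6 were matched by the standard gene names.

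The members, the gene lists and the alternatives were chosen with earlier results of these data known. Named were all members and the 8 genes most like the mean of the member mRNAs by either measure. From each list, genes were drawn from up to 3 by smallest p among those that passed (otherwise up to 2 by level). Not all of these are named: Malsu1 and Fastkd1, for example, are left out. Some others, such as Cox8a, mt-Nd1 and Hsd3b1, were named outside this rule.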

Additional observations from a re-analysis of the deposited data

Results flagged for a closer look

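MII Null replicate 3 stood apart from the other MII Null libraries in the ratio of the 6 complex III, IV and V mRNAs to the 7 complex I mRNAs. It had a ratio of 2.152, against 1.935, 1.935 and 1.97 in replicates 1, 2 and 4, and 1.783 to 1.956 in MII WT. Its gap to the nearest library was 0.841 of the range of the group, above the critical value for 4 libraries. Of 13 groups of values that were large enough to test, 1 was singled out in this way, and chance singles out about 1 in 20. The geometric mean of MII Null was 1.07 times that of MII WT, and 1.04 to 1.09 times with each library left out in turn. With every gene weighted alike, which gives more weight to mt-Nd3, it was 1.34 times.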

How the results depend on the processing

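Of 983 recomputed values, 609 values of single genes kept their direction and their side of the threshold. A further 297 summary values were counted as kept by looser rules. Shares and ratios had to keep only their direction, and numbers of calls had to stay near those of the main fit. With no filter on low counts, 644 genes were called for Null against WT in GV oocytes, 290 in MII eggs and 157 for the difference between stages (11, 11 and 1 with the filter), and 7 and 6 of the 8 members passed in GV oocytes and MII eggs; the cause was not tested. DESeq2 called 25, 38 and 3 genes and 1 member, mt-Co3, in eggs. With each library left out in turn, calls ran from 6 to 139 in GV oocytes (139 without GV Null replicate 1, 6 without GV WT replicate 1 or 2 or GV Null replicate 3), from 4 to 12 in MII eggs (4 on leaving out MII WT replicate 1 or 2, 6 on leaving out its replicate 3 and 7 on leaving out MII Null replicate 1), and from 0 to 1 for the difference. The members called ran from 0 to 1 in eggs, with mt-Co3 passing without MII Null replicate 2. The difference had 0 calls with RLE scaling. With GV Null replicate 1 as the lone GV Null library, 1 gene was called in GV oocytes, 0 for the difference and 5672 for maturation in Null (9867 with all libraries), and the rRNA share in GV Null was 0.957 times the geometric mean of WT. A filter of 5 CPM in 3 libraries left 6569 calls for maturation in Null, with fewer genes tested. For the ratio of the 6 mRNAs to the complex I mRNAs in GV oocytes, Null was 0.983 times WT without GV Null replicate 1. It was 0.983 to 1.04 times WT over libraries left out. With every gene weighted alike, which gives more weight to mt-Nd3, it was 1.21 times.

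Signs of the difference between stages were not stable. With that lone library it turned to 0.044 for mt-Co1, 0.13 for mt-Co2, 0.075 for mt-Atp6, 0.071 for mt-Cytb, 0.17 for mt-Rnr1 and 0.29 for mt-Rnr2, and the genotype effect of mt-Rnr2 in GV oocytes turned to -0.11. Over libraries left out it ran from -0.21 to 0.094 for mt-Co2, -0.10 to 0.18 for mt-Co3, -0.028 to 0.43 for mt-Atp8 and -0.30 to 0.010 for mt-Rnr2.

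Replicate numbers do not pair the samples by the labels. Over 18 pairs with the same number, deviations correlated with r from -0.2 to 0.214, 3 above 0.1, and 2 of 13 libraries correlated best with their own number. With the replicate number as a block the difference between stages had 0 calls and was -0.086 for mt-Co3, and no other member call changed. The lowest count of a member in a library was 702 reads, for mt-Atp8.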
